A study of Mus musculus with 6 samples.

Results

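Most of the genes described here encode factors that start translation in the cytosol, together with kinases that switch the factor eIF2 off. Others with such symbols do other work, as given below for Eif4a3, Eif5a and Eif6, or inhibit eIF4E. The genes were all rows of the deposited tables whose symbols begin with Eif and a digit of 1 to 6. Leaving out 3 genes with such symbols gave 52 genes of 21878 listed. By family they were 5 eIF2 genes, 5 eIF2B genes, 3 eIF2 kinase genes, 14 eIF3 genes, 15 eIF4 genes and 10 genes of eIF1, eIF5 and eIF6. The samples were 6 RNA sequencing libraries of sorted mouse bone marrow cells that the labels call LT-HSCs, long-term hematopoietic stem cells, the source of all blood lineages in the adult. Of these, 3 came from wild-type (WT) mice kept on SGFD, a diet that lacks serine and glycine, and 3 from WT mice on CD, the control diet, both over 3 months; the sort took lineage-negative cells with Kit and Sca1 and without CD34 and CD135. Neither the age and strain of the mice nor whether a library held 1 animal or a pool is given in the sources used here, and the p-values cover only library-to-library spread, which may be technical.

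Translation of most mRNAs begins when eIF2, carrying GTP and the initiator tRNA, joins the small ribosomal subunit with eIF1, eIF1A, eIF3 and eIF5. The eIF4 factors bring the mRNA by its cap and unwind it, and eIF5B joins the large subunit. eIF2B reloads eIF2 with GTP, and kinases that phosphorylate the alpha subunit of eIF2 turn it into an inhibitor of eIF2B. The kinase GCN2, encoded by Eif2ak4, answers to amino acid shortage through uncharged tRNA and stalled ribosomes, PERK (Eif2ak3) to unfolded protein in the endoplasmic reticulum, and HRI (Eif2ak1) to lack of heme and to mitochondrial stress. Hematopoietic stem cells are known for a low rate of protein synthesis. The values below are mRNA levels and do not report phosphorylation or protein.

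Values are FPKM, that is fragments divided by gene length and by library total, so levels of different genes can be set side by side. Recovered whole fragments came to between 18208509 and 19304007 per library, and a tested member had between 66 and 29538 in a library. Both are known only up to an unknown whole factor per gene. The FPKM of all rows summed to 475019, 464222 and 485048 in the SGFD libraries, against 428181, 433592 and 427769 in the CD libraries. An alternative used below, equal sums, removes that difference. Differences were tested with limma on log2(FPKM + 1) over 10620 genes that reached 1 FPKM in 3 or more libraries, with a Benjamini-Hochberg adjusted p of 0.05 as the threshold, and numbers in parentheses after an alternative are such adjusted p-values unless named otherwise; fold changes on this scale understate those of low genes. Over all tested genes the log2 fold change had a median of -0.13, and 1875 were higher and 4438 lower with SGFD; after median-ratio scaling of the libraries 3054 were higher and 2844 lower. Markers of other cells moved in the same libraries: the summed level of 10 granulocyte and monocyte progenitor genes was 3821 ± 199 FPKM with SGFD and 929 ± 16.6 FPKM with CD, all 10 being higher with SGFD. The summed level of 10 LT-HSC genes was 196 ± 4.17 FPKM with SGFD and 317 ± 0.686 FPKM with CD, with 7 of the 9 tested lower and none higher. Most of that sum came from the sort markers Kit and Ly6a (Sca1). Kit had 71.4 FPKM with SGFD and 121.7 FPKM with CD, and Ly6a 58.5 and 66.7 FPKM. Summed levels were 36.6 ± 1.82 FPKM with SGFD and 11.6 ± 0.155 FPKM with CD for 6 neutrophil genes (5 of 5 tested higher), 95.3 ± 2.57 FPKM with SGFD and 213 ± 3.71 FPKM with CD for 7 erythroid genes (3 of 3 tested lower), 25.6 ± 0.468 FPKM with SGFD and 29.03 ± 4.53 FPKM with CD for 6 B cell genes (2 of 3 tested lower), 49.9996 ± 0.799 FPKM with SGFD and 49.5 ± 2.398 FPKM with CD for 5 megakaryocyte genes (1 of 3 tested higher and 1 lower) and 1.502 ± 0.271 FPKM with SGFD and 8.39 ± 0.699 FPKM with CD for 6 macrophage genes (4 of 4 tested lower). Of 4 T cell genes Cd3e was at 0 in every library and none reached the filter. The LT-HSC genes Slamf1 and Hoxb5 were low under both diets, and Mecom, Fgd5 and Ctnnal1 were also low. Hlf and Procr were present under both diets but lower with SGFD. Hlf had 21.9 FPKM with SGFD and 56.2 FPKM with CD, and Procr 12.2 and 19.9 FPKM. In these bulk libraries fewer cells of a type and less RNA per cell cannot be told apart, and the part of these markers in the results below was not tested. SGFD replicate 2 was the SGFD library nearest to the CD mean in 23 of the 37 members called below.

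The mRNAs with initiation factor symbols stood higher with SGFD as a group, whereas the kinase GCN2 and a few eIF4 genes stood lower. Of 51 members tested, 32 rose and 5 fell with SGFD and 14 did not pass, against 17.7% of all tested genes that were higher and 41.8% that were lower (59.4% in either direction); Eif4e1b was listed at 0 in every library and was not tested. The median log2 fold change of the members was 0.19, which is 0.32 above that of all tested genes. All 3 SGFD values exceeded all 3 CD values in 34 members, against 19.6% of tested genes, and lay below them in 7, against 45.5%. Of all FPKM the 52 genes together held 1.32, 1.32 and 1.32% in the SGFD libraries, against 1.26, 1.25 and 1.25% in the CD libraries. Most changes were small: apart from Eif3j2 and Eif4a2, the log2 fold changes lay between -0.41 (Eif2ak4) and 0.47 (Eif6). Scaling moved the counts, since 40 members were higher and 3 lower after median-ratio scaling, 21 and 7 after quantile normalization, 11 and 9 with libraries set to equal sums, and 39 and 2 after centring within bins of transcript length. Under all 15 alternatives Eif2s2, Eif3b, Eif3g, Eif3k, Eif3l, Eif3m, Eif5a and Eif6 remained higher and Eif4a2 remained lower, 9 of the 37 called members; 29 of the 37 kept their call whichever single library was left out.

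**Figure D1:**
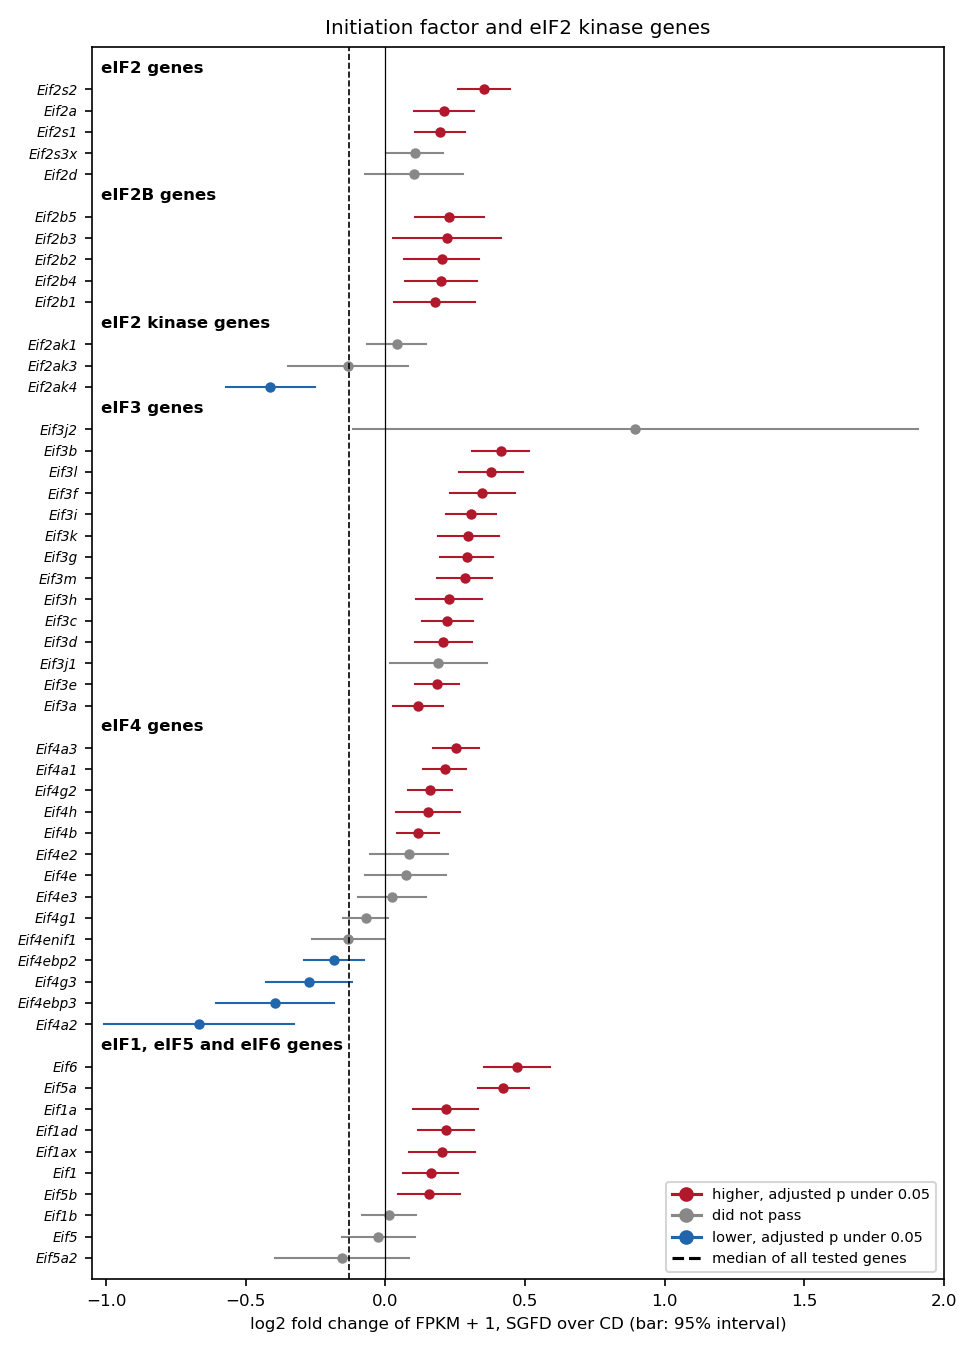
Log2 fold change of each tested member, SGFD over CD, on the scale of FPKM + 1, by family and in order of size; bars are 95% intervals from limma and the dashed line is the median of every gene tested, -0.13. All 5 eIF2B genes and 12 of 14 eIF3 genes lie to the right with a call, against 17.7% of all tested genes. Eif4a2 lies farthest to the left. Eif3a, Eif3e and Eif3h had log2 fold changes below 0 after quantile normalization.

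The mRNAs of 2 of the 3 subunits of eIF2 rose, while 17.7% of all tested genes were higher. Eif2s2, for the beta subunit that contacts the initiator tRNA complex and eIF5, (GRCm38.p6 chromosome 2, 154871410 to 154892906), had 73.4, 77.2 and 77.4 FPKM in the SGFD libraries, against 57.7, 60.3 and 59.99 FPKM in the CD libraries. Every SGFD library exceeded every CD library, a rise of 28.1% in mean FPKM (log2 fold change 0.35 ± 0.04 (SE), limma adjusted p = 8.36e-05). Eif2s1, for the alpha subunit that the kinases phosphorylate, had 59.04, 59.7 and 58.8 FPKM in the SGFD libraries, against 52.1, 50.4 and 52.1 FPKM in the CD libraries. It rose by 14.9% (limma adjusted p = 0.00197), with no overlap between the diets, though not with equal sums (limma adjusted p = 0.269). Eif2s3x, for the gamma subunit that binds GTP and the tRNA, had 48.4, 45.2 and 47.6 FPKM in the SGFD libraries, against 44.6, 44.1 and 42.4 FPKM in the CD libraries. Its groups did not overlap but it missed the threshold (limma adjusted p = 0.0728, 95% interval of the log2 fold change 0.00 to 0.21); it passed without SGFD replicate 2 (0.0257), after median-ratio scaling (0.00258) and after length centring (0.00262). This gene has a near-identical copy on the Y chromosome, so fragments could be split between them.

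In level the eIF2 subunits kept the order beta, alpha, gamma under either diet, with 76.02 ± 2.27 FPKM with SGFD and 59.3 ± 1.42 FPKM with CD for Eif2s2, 59.2 ± 0.478 FPKM with SGFD and 51.5 ± 0.982 FPKM with CD for Eif2s1 and 47.1 ± 1.702 FPKM with SGFD and 43.7 ± 1.16 FPKM with CD for Eif2s3x (SD, n = 3 each). Factors that can deliver tRNA apart from eIF2 went the same way in part. Eif2a, which encodes such a factor unrelated to the alpha subunit, rose to 64.9 ± 3.62 FPKM with SGFD, against 55.9 ± 1.16 FPKM with CD (limma adjusted p = 0.004; 0.165 with equal sums). Eif2d, which acts in re-initiation and recycling, had 5.86 ± 0.333 FPKM with SGFD and 5.39 ± 0.358 FPKM with CD and did not pass (limma adjusted p = 0.288), but passed after median-ratio scaling (0.034), quantile normalization (0.00516) and length centring (0.0242).

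All 5 subunits of eIF2B rose by similar amounts, with log2 fold changes of 0.18 to 0.23, while 17.7% of all tested genes were higher. None of their groups overlapped, while 19.6% of all tested genes had every SGFD value above every CD value. Eif2b5, for the epsilon subunit that catalyses nucleotide exchange, had 42.8, 38.2 and 42.7 FPKM in the SGFD libraries, against 36.3, 34.98 and 33.7 FPKM in the CD libraries. Eif2b2, for the beta subunit of the regulatory core, had 46.3, 40.8 and 43.04 FPKM in the SGFD libraries, against 39.2, 34.9 and 38.8 FPKM in the CD libraries. Eif2b4, for the delta subunit of that core, had 17.5, 17.7 and 18.8 FPKM in the SGFD libraries, against 15.004, 15.5 and 16.1 FPKM in the CD libraries. In each case the lowest SGFD library stood above the highest CD library, and Eif2b5 gave the smallest p of the complex (log2 fold change 0.23 ± 0.06 (SE), limma adjusted p = 0.00534). Eif2b1, for the alpha subunit, had 21.6, 21.9 and 25.3 FPKM in the SGFD libraries, against 20.1, 20.05 and 20.2 FPKM in the CD libraries. Eif2b3, for the gamma subunit that pairs with epsilon, had 4.99, 4.66 and 4.86 FPKM in the SGFD libraries, against 4.53, 3.74 and 3.79 FPKM in the CD libraries. The catalytic Eif2b5 and the core Eif2b2 were the most abundant, and Eif2b3 the least, at 4.84 ± 0.169 FPKM with SGFD and 4.02 ± 0.444 FPKM with CD.

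These calls were close to the threshold. Eif2b1 (limma adjusted p = 0.0371) was lost without SGFD replicate 3 (0.118) or without CD replicate 1, 2 or 3 (0.0878, 0.0834 and 0.0809). Eif2b3 (limma adjusted p = 0.0486) was lost without SGFD replicate 1 (0.128), SGFD replicate 3 (0.0853), CD replicate 2 (0.152) or CD replicate 3 (0.149). Eif2b2 (limma adjusted p = 0.0158) was lost without SGFD replicate 1 (0.0704) or CD replicate 2 (0.0691), and Eif2b4 (limma adjusted p = 0.0135) without CD replicate 1 (0.0611). Thus 3 of 5 subunits were higher without SGFD replicate 1, SGFD replicate 3, CD replicate 1 or CD replicate 3, 2 of 5 without CD replicate 2, and 0 of 5 with libraries set to equal sums, where all 5 log2 fold changes were still above 0.

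Of the kinases, 1 of 3 changed and was lower, while 41.8% of all tested genes were lower; the median of the 3 was -0.13, near that of all tested genes. Eif2ak4 (GCN2; GRCm38.p6 chromosome 2, 118388583 to 118475234) had 9.92, 11.7 and 10.03 FPKM in the SGFD libraries, against 14.2, 14.3 and 14.4 FPKM in the CD libraries. All 3 SGFD values lay below the CD values, which were close together, and SGFD replicate 2 was the highest of its group; the mean fell by 26.4% (log2 fold change -0.41 ± 0.07 (SE), limma adjusted p = 0.000756). The call held without any 1 library and under each other alternative except centring within bins of transcript length, where the log2 fold change was -0.11 (limma adjusted p = 0.16). The longest annotated transcript of Eif2ak4 has 5298 bases, and tested genes in its length bin had a median log2 fold change of -0.29. Eif2ak3 (PERK) had 5.73, 5.84 and 4.53 FPKM in the SGFD libraries, against 5.73, 5.71 and 6.46 FPKM in the CD libraries. Its groups overlapped, SGFD replicate 3 being the lowest of all (limma adjusted p = 0.25, 95% interval of the log2 fold change -0.35 to 0.08). Eif2ak1 (HRI) had 29.5, 29.003 and 29.2 FPKM in the SGFD libraries, against 27.4, 28.6 and 29.2 FPKM in the CD libraries. It was the most abundant of the 3 and its groups overlapped (limma adjusted p = 0.474, 95% interval -0.06 to 0.15), though it was called higher after median-ratio scaling (0.0117) and length centring (0.00411). Of the summed FPKM of these kinases Eif2ak4 made up 21.97, 25.1 and 22.9% in the SGFD libraries, against 29.99, 29.5 and 28.8% in the CD libraries, with no overlap between the diets.

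**Figure D2:**
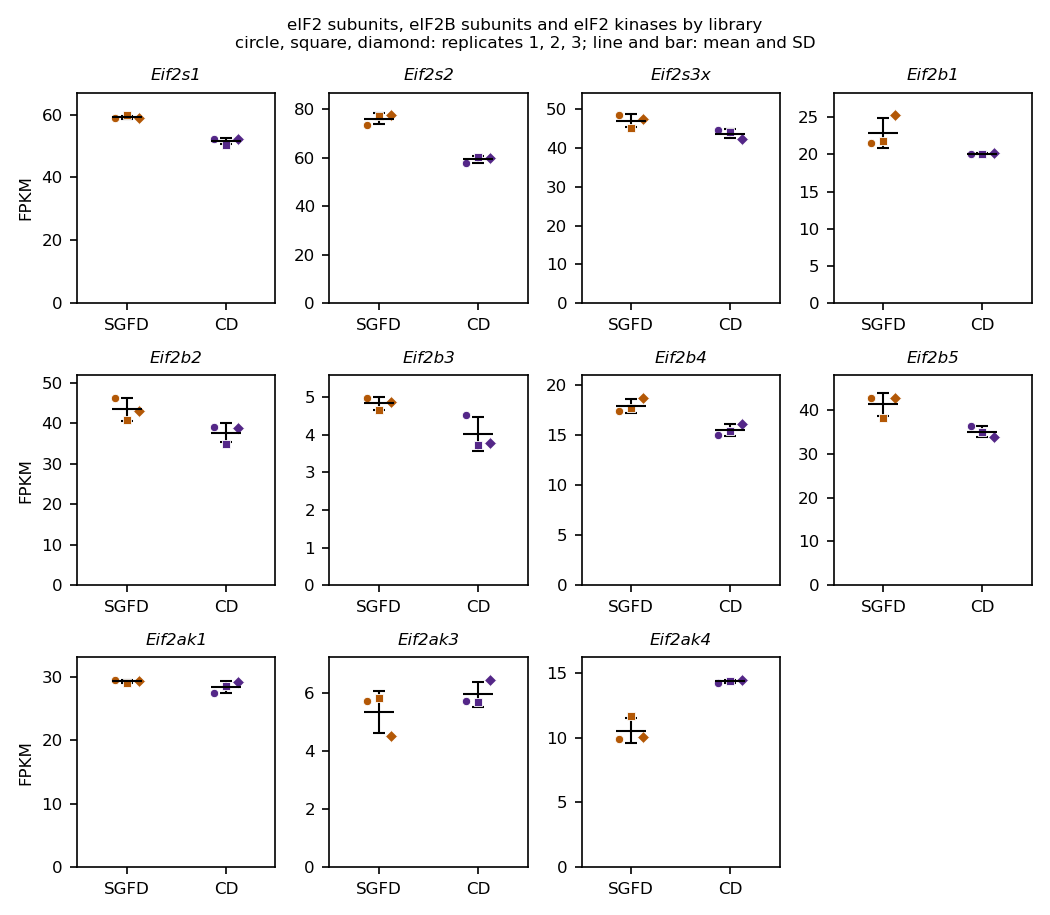
FPKM of the eIF2 subunit, eIF2B subunit and eIF2 kinase genes in each library, SGFD left and CD right; symbols are replicates 1 to 3, and lines with bars are the mean and SD. The SGFD values of all 5 eIF2B genes stand above the CD values, and those of Eif2ak4 stand below. Of all tested genes 19.6% stood apart upward in this way and 45.5% downward.

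Genes that act on eIF2 or on its kinases numbered 5 higher and 4 lower of 15 tested (33.3% and 26.7%), against 17.7% and 41.8% of all tested genes, and their median log2 fold change of -0.10 was near the -0.13 of all tested genes. Gcn1l1, which encodes the partner that GCN2 needs for activation on the ribosome, fell to 20.8 ± 0.6902 FPKM with SGFD, against 26.2 ± 0.183 FPKM with CD (limma adjusted p = 0.000412), but its log2 fold change was 0.12 after length centring. Nck1, an adaptor reported to bring phosphatase to eIF2, fell to 8.82 ± 1.03 FPKM with SGFD, against 12.03 ± 0.423 FPKM with CD. Impact, whose product inhibits GCN2 by competing for GCN1, had 4.202 ± 0.8705 FPKM with SGFD and 6.29 ± 0.156 FPKM with CD, also a fall (limma adjusted p = 0.00297). It was not among the 4 genes of smallest p in this list, and its alternatives are not given here. Ppp1r15a (GADD34), the stress-induced subunit that directs phosphatase to eIF2 alpha, rose to 125 ± 13.3 FPKM with SGFD, against 93.3 ± 2.82 FPKM with CD (limma adjusted p = 0.000424). Ppp1ca, a catalytic subunit of that phosphatase, rose to 357 ± 22.4 FPKM with SGFD, against 299 ± 7.29 FPKM with CD, but its log2 fold change was -0.031 after quantile normalization. The other genes called higher were Metap2, Ppp1cc and Atf4 (limma adjusted p = 0.00627, 0.00722 and 0.0199). Ppp1cb, another catalytic subunit, named after its values were seen, fell to 68.998 ± 2.53 FPKM with SGFD, against 75.3 ± 1.39 FPKM with CD (log2 fold change -0.12, limma adjusted p = 0.0278), but its log2 fold change was 0.013 after median-ratio scaling, and 0.18, called higher, after length centring. The call of Ppp1cb was lost without SGFD replicate 1 (0.11), CD replicate 1 (0.0593), CD replicate 2 (0.1) or CD replicate 3 (0.0646). With equal sums 2 of the 15 were higher and 10 lower, and after quantile normalization 1 was higher and 4 lower.

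eIF3, the large scaffold that holds the initiation complex on the small subunit, was the family with the most calls by count. By share eIF2B stood above it, with 100% of its genes higher against 85.7%. Of 14 genes tested, 12 rose and none fell, against 17.7% and 41.8% of all tested genes. The median log2 fold change was 0.29, against -0.13 for all tested genes. The summed level was 2596 ± 112 FPKM with SGFD and 2141 ± 40.3 FPKM with CD. Over all tested genes the sums were 474009 ± 10441 FPKM with SGFD and 428934 ± 3276 FPKM with CD. With equal sums 7 of the 14 were higher. After quantile normalization 5 of the 14 were higher, those that kept their call everywhere (Eif3b, Eif3g, Eif3k, Eif3l and Eif3m); Eif3f, with an adjusted p of 0.0878 from limma, was among those that did not pass, and the log2 fold changes of Eif3a, Eif3e and Eif3h were then -0.028, -0.052 and -0.029. Eif3b, for a peripheral subunit that binds Eif3g and Eif3i, had 225, 206 and 227 FPKM in the SGFD libraries, against 165, 169 and 159 FPKM in the CD libraries. It showed the largest rise of the called subunits, 33.4% (log2 fold change 0.41 ± 0.05 (SE), limma adjusted p = 5.57e-05). Its partners are Eif3i and Eif3g. Eif3i had 222, 212 and 232 FPKM in the SGFD libraries, against 178, 179 and 179 FPKM in the CD libraries. Eif3g had 190.01, 181 and 199.7 FPKM in the SGFD libraries, against 154, 155 and 156 FPKM in the CD libraries. The log2 fold changes were 0.31 ± 0.04 for Eif3i and 0.29 ± 0.04 for Eif3g (SE), and neither gene overlapped between diets; Eif3i did not pass after quantile normalization (0.244).

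Subunits of the structural core of eIF3 (Eif3a, Eif3c, Eif3e, Eif3f, Eif3h, Eif3k, Eif3l and Eif3m) all rose, the median being 0.26 on the log2 scale; after quantile normalization it was 0.05, with Eif3a, Eif3e and Eif3h below 0. Eif3l had 197, 175 and 200.2 FPKM in the SGFD libraries, against 146, 149.6 and 144 FPKM in the CD libraries. Eif3f, one of the more abundant subunits, had 322, 291 and 327 FPKM in the SGFD libraries, against 247, 257 and 235 FPKM in the CD libraries. Eif3m had 179.5, 173 and 191 FPKM in the SGFD libraries, against 149.7, 151 and 145 FPKM in the CD libraries. In these 3 genes SGFD replicate 2 was the lowest SGFD library and still exceeded every CD library. Eif3h had 309, 287 and 329 FPKM in the SGFD libraries, against 254, 276 and 259 FPKM in the CD libraries. Eif3e had 267, 274 and 279.7 FPKM in the SGFD libraries, against 241, 242 and 238 FPKM in the CD libraries. Together with Eif3f these were the most abundant subunit mRNAs, and the rises of Eif3h and Eif3e, which turned below 0 after quantile normalization, were 17.3% and 13.7%, neither passing with equal sums (0.0795 and 0.239). Eif3k rose by 23.2%, Eif3c by 16.7% and the peripheral Eif3d, which can bind caps of some mRNAs, by 15.7%; Eif3c and Eif3d did not pass after quantile normalization (0.6 and 0.198) or with equal sums (0.0508 and 0.142). The largest subunit gene, Eif3a, rose least, by 8.51% (limma adjusted p = 0.0299). That call was lost without SGFD replicate 1 (0.0794), SGFD replicate 2 (0.0536), CD replicate 1 (0.11), CD replicate 2 (0.0525) or CD replicate 3 (0.0839). Among the 12 called eIF3 genes SGFD replicate 2 was the SGFD library nearest to the CD mean in 10.

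**Figure D3:**
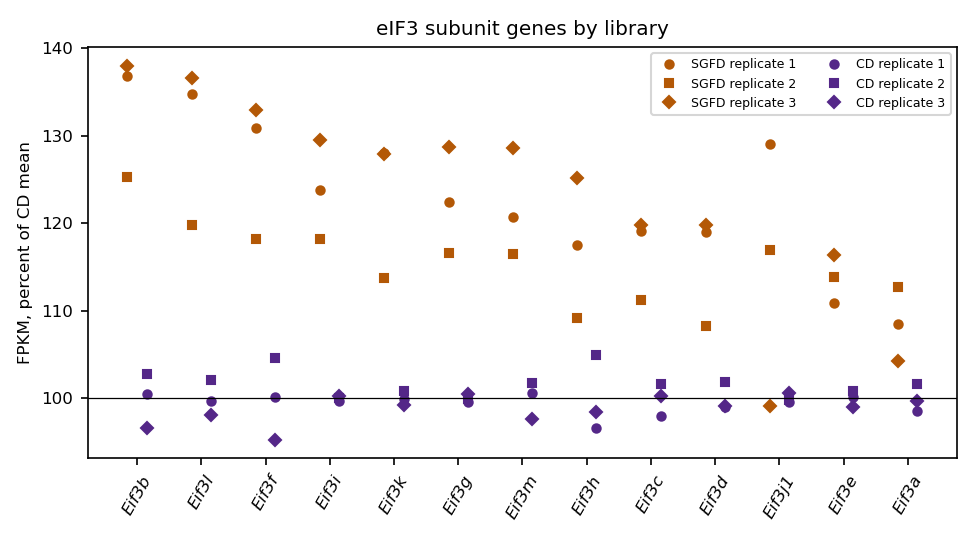
FPKM of 13 eIF3 genes in each library as a percent of the gene's CD mean, in order of the ratio of the group means; orange is SGFD and purple CD, and symbols are replicates. SGFD libraries of every gene but Eif3j1 stand above all CD libraries, as in 19.6% of all tested genes. SGFD replicate 2 is the lowest SGFD library of most called genes. Eif3a, Eif3e and Eif3h had log2 fold changes below 0 after quantile normalization.

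Eif3j is represented by a pair of near-identical genes, Eif3j1 and Eif3j2, between which fragments can be split. Eif3j1 had 51.3, 46.5 and 39.4 FPKM in the SGFD libraries, against 39.6, 39.6 and 40.003 FPKM in the CD libraries. Eif3j2 had 1.42, 6.18 and 8.55 FPKM in the SGFD libraries, against 1.53, 2.98 and 1.56 FPKM in the CD libraries. The copies went opposite ways among the SGFD libraries: replicate 1 was highest for Eif3j1 and lowest for Eif3j2, and replicate 3 the reverse. Neither passed (limma adjusted p = 0.0569 and 0.112), although Eif3j1 did without SGFD replicate 3 (0.00148) and Eif3j2 without SGFD replicate 1 (0.000589). Eif3j1 also passed after median-ratio scaling (0.00448) and length centring (0.000383). The sum of the pair was 52.7, 52.7 and 47.97 FPKM in the SGFD libraries, against 41.1, 42.6 and 41.6 FPKM in the CD libraries, with no overlap between diets. How fragments were assigned between the copies was not tested.

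The sequence before the transcription start is shown for the 5 eIF3 genes called under every alternative and, beside them, for Eif4a2, the gene that fell under every alternative. Each is the 150 bases upstream of the start in RefSeq on GRCm38.p6, 5′ to 3′ on the gene's strand, at chr5:140419155-140419304 (plus strand) for Eif3b, chr9:20898591-20898740 (minus) for Eif3g, chr7:28981889-28982038 (minus) for Eif3k, chr15:79075073-79075222 (plus) for Eif3l, chr2:105017028-105017177 (minus) for Eif3m and chr16:23107318-23107467 (plus) for Eif4a2. Capitals mark 2 motifs, on either strand: CACGTG, the E-box bound by MYC, MAX and related factors, and CTTCCG, a core bound by ETS family factors.
Eif3b: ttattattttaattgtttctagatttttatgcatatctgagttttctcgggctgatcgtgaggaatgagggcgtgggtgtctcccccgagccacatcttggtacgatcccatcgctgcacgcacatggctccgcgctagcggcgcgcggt
Eif3g: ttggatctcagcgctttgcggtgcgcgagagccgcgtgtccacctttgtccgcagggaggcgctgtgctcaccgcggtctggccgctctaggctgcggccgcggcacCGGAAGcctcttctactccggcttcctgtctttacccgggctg
Eif3k: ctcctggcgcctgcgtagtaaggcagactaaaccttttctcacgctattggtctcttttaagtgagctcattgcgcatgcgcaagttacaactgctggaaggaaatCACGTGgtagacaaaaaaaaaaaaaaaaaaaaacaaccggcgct
Eif3l: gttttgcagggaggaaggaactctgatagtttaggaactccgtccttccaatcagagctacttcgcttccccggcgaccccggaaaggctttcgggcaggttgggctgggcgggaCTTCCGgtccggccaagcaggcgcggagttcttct
Eif3m: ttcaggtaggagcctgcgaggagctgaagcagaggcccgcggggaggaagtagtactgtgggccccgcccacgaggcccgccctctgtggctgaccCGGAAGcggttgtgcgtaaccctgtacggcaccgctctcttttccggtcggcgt
Eif4a2: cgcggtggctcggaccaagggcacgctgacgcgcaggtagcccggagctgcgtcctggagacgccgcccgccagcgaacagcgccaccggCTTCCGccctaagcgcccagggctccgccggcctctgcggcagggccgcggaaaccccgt
The ETS core stands in the stretches of Eif3g, Eif3l and Eif3m, the E-box in that of Eif3k, and neither in that of Eif3b; Eif4a2, which fell, also holds the ETS core. Promoter windows of 300 bases (250 before and 50 after the start) were matched for 41 of the 52 members, 54 windows in all, some overlapping where a gene has several starts. The ETS core was in 27 of them (50%), against 32.96% of the windows of tested genes and 16.9% of all 32851 windows. The E-box was in 12 (22.2%), against 10.3% of tested-gene windows and 7.15% of all windows. TGATGNAA, the element bound by ATF4 with C/EBP proteins, was in 1, upstream of Eif2s3x, against 2.15% and 3.97%. The E-box and TGATGNAA can share a terminal TG or CA, neither can share bases with the ETS core, and a match is a match of letters.

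The eIF4 genes went both ways: 5 of 14 tested rose, 4 fell and 5 did not pass, the median change being 0.05 on the log2 scale. The shares were 35.7% higher and 28.6% lower, against 17.7% and 41.8% of all tested genes, so falls were no more frequent than among all genes. The split between the paralogs of the helicase eIF4A was the widest. Eif4a1, the main helicase gene and among the most abundant members, had 595, 604 and 596 FPKM in the SGFD libraries, against 522, 519 and 508 FPKM in the CD libraries. Eif4a2, whose product can replace eIF4A1 or act with the CCR4-NOT complex, had 71.8, 100.4 and 57.1 FPKM in the SGFD libraries, against 124, 109 and 124 FPKM in the CD libraries. Every Eif4a2 value with SGFD lay below every CD value, but SGFD replicate 2 stood well above the other SGFD libraries; the mean fell by 35.8% (log2 fold change -0.67 ± 0.15 (SE), limma adjusted p = 0.00367), and over the alternatives the log2 fold change ranged from -0.88 to -0.48. Eif4a1 rose by 15.9% (limma adjusted p = 0.00051), except after quantile normalization, where it was called lower with a log2 fold change of -0.074 (adjusted p = 0.0325), and with equal sums (0.0576). Of the FPKM of the pair Eif4a2 made up 10.8, 14.3 and 8.75% in the SGFD libraries, against 19.2, 17.3 and 19.7% in the CD libraries, a share that multiplying a library by a factor does not change. Eif4a3, a core part of the exon junction complex rather than of initiation, had 157, 163 and 155 FPKM in the SGFD libraries, against 132, 133 and 132 FPKM in the CD libraries. It rose by 19.4%, though not after quantile normalization (0.0718).

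Among the scaffold proteins eIF4G, the members again parted. Eif4g1, the main scaffold that joins eIF4E, eIF4A and eIF3, had 97.3, 97.1 and 96.2 FPKM in the SGFD libraries, against 102, 102 and 101 FPKM in the CD libraries. Its groups did not overlap, but the difference was small and missed the threshold (limma adjusted p = 0.112, 95% interval -0.15 to 0.01); it was called lower after quantile normalization (log2 fold change -0.20) and with equal sums (log2 fold change -0.21), and higher after length centring (log2 fold change 0.23). Eif4g2 (DAP5), which lacks the eIF4E site, had 184, 190.4 and 185 FPKM in the SGFD libraries, against 167, 167 and 168 FPKM in the CD libraries. It rose by 11.7%, a call lost after quantile normalization (log2 fold change -0.047) and with equal sums. Eif4g3, the other cap-dependent scaffold, had 23.1, 22.6 and 19.4 FPKM in the SGFD libraries, against 27.4, 25.1 and 26.6 FPKM in the CD libraries. It fell by 17.8% (limma adjusted p = 0.00627), but not after median-ratio scaling (0.0902), and it was called higher after length centring (log2 fold change 0.16); at 8134 bases its longest transcript is the longest of the tested members.

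The cap-binding genes themselves were of middling level among tested genes, and below most other initiation factors. Eif4e had 14.3, 15.4 and 16.3 FPKM in the SGFD libraries, against 14.1, 15.03 and 14.5 FPKM in the CD libraries. Its groups overlapped (limma adjusted p = 0.355, 95% interval -0.07 to 0.22), and it was called higher after median-ratio scaling, quantile normalization and length centring (0.0243, 0.0286 and 0.00943). Eif4e2 (4EHP), which represses translation at the cap, and Eif4e3 had log2 fold changes of 0.09 and 0.02 and did not pass, though Eif4e2 passed under the same 3 scalings and Eif4e3 after median-ratio scaling. Both tested inhibitor genes of eIF4E were lower, though Eif4ebp2 turned above 0 after length centring. Eif4ebp2, an inhibitor that mTORC1 relieves, had 54.6, 51.5 and 55.4 FPKM in the SGFD libraries, against 62.98, 62.6 and 58.4 FPKM in the CD libraries. It fell by 12.2% (limma adjusted p = 0.00746), but not after median-ratio scaling (0.471), and its log2 fold change was 0.12 after length centring. The ratio of Eif4ebp2 to Eif4e FPKM, which a factor per library does not change, was 3.82, 3.33 and 3.39 in the SGFD libraries, against 4.46, 4.17 and 4.03 in the CD libraries. Eif4ebp3, a less abundant inhibitor, had 6.55, 7.996 and 7.31 FPKM in the SGFD libraries, against 8.71, 10.97 and 10.1 FPKM in the CD libraries. It fell by 26.5% (limma adjusted p = 0.00468), though not after quantile normalization (0.116). Eif4enif1 (4E-T), which carries eIF4E to the nucleus and to P-bodies, had 21.6 ± 1.402 FPKM with SGFD and 23.7 ± 0.331 FPKM with CD and did not pass (limma adjusted p = 0.0674), but did without SGFD replicate 2 (0.0333) and with equal sums (0.00394).

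Eif4b and Eif4h, cofactors that stimulate the helicase, were abundant and slightly higher, though with log2 fold changes below 0 after quantile normalization. Eif4b had 282, 279.9 and 282 FPKM in the SGFD libraries, against 258, 261 and 259 FPKM in the CD libraries. Eif4h had 195, 173 and 199 FPKM in the SGFD libraries, against 171, 172 and 167 FPKM in the CD libraries. The rises were 8.42% and 11.3% with no overlap between the diets, and the calls rested on single libraries and on scaling. Eif4b (limma adjusted p = 0.0129) did not pass without SGFD replicate 1 (0.0503), CD replicate 1 (0.0618) or CD replicate 3 (0.0513), and was called lower after quantile normalization (log2 fold change -0.13). Eif4h (limma adjusted p = 0.0265) did not pass without SGFD replicate 1 (0.106), SGFD replicate 3 (0.0781), CD replicate 1 (0.06), CD replicate 2 (0.0529) or CD replicate 3 (0.0887). The count of higher eIF4 genes was accordingly 3 without SGFD replicate 1, CD replicate 1 or CD replicate 3.

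**Figure D4:**
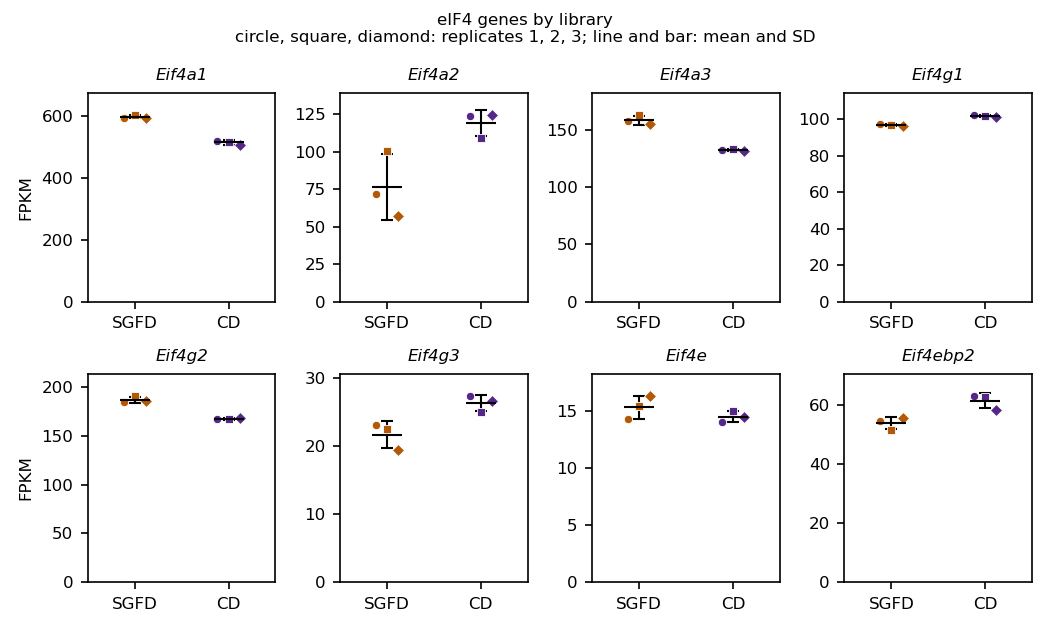
FPKM of 8 eIF4 genes in each library, SGFD left and CD right, with each axis starting at 0; symbols are replicates 1 to 3, and lines with bars are the mean and SD. Eif4a2 is lower with SGFD and Eif4a1 higher, the second of these reversed after quantile normalization, and SGFD replicate 2 has the highest Eif4a2 value of its group.

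Other genes that act on the cap complex or in re-initiation numbered 6 higher and 9 lower of 24 (25% and 37.5%), against 17.7% and 41.8% of all tested genes, and their median log2 fold change of -0.14 was near the -0.13 of all tested genes. Pabpc4 and Pabpc1, poly(A)-binding proteins that bridge the tail to eIF4G, rose to 117 ± 1.98 FPKM with SGFD, against 89.6 ± 1.501 FPKM with CD and to 1132 ± 60.9 FPKM with SGFD, against 878 ± 20.7 FPKM with CD; Pabpc1 did not pass after quantile normalization (0.308). Gigyf1 and Gigyf2, partners of eIF4E2 in repression, fell to 8.95 ± 1.72 FPKM with SGFD, against 15.7 ± 0.919 FPKM with CD and to 13.9 ± 0.198 FPKM with SGFD, against 18.3 ± 0.195 FPKM with CD; Gigyf2 did not pass after length centring (0.306). After median-ratio scaling 8 of the 24 were higher and 3 lower, and with equal sums 3 and 15.

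Of the 10 genes of eIF1, eIF5 and eIF6, 7 rose (70%) and none fell, against 17.7% and 41.8% of all tested genes. Their median was 0.18 on the log2 scale, against -0.13 for all tested genes, though Eif1 stood below 0 after quantile normalization. With equal sums 2 were higher and 2 lower. Eif5a, which encodes the hypusine-bearing factor that helps ribosomes past difficult peptide bonds, had 649.8, 627 and 689.8 FPKM in the SGFD libraries, against 489, 492 and 484 FPKM in the CD libraries. Eif6, whose product keeps free large subunits from joining and serves in their assembly, had 112, 101 and 110.4 FPKM in the SGFD libraries, against 78.8, 80.4 and 73.1 FPKM in the CD libraries. Both stood well apart between diets, with rises of 34.2% (log2 fold change 0.42 ± 0.04 (SE), limma adjusted p = 2.66e-05) and 39.2% (0.47 ± 0.05, limma adjusted p = 5.5e-05). Eif5a and Eif4a1 were the most abundant members. Eif5a2, the paralog of Eif5a, had 1.68, 1.85 and 1.42 FPKM in the SGFD libraries, against 1.92, 2.29 and 1.66 FPKM in the CD libraries. Its groups overlapped and it did not pass (limma adjusted p = 0.236).

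Eif1 and the eIF1A genes serve the search for the start codon. Eif1 had 305, 331 and 302 FPKM in the SGFD libraries, against 281, 270.1 and 286 FPKM in the CD libraries. Eif1ax had 163, 146 and 160.01 FPKM in the SGFD libraries, against 131, 144 and 132 FPKM in the CD libraries. Eif1a, the autosomal copy of Eif1ax, had 46.3, 46.4 and 49.05 FPKM in the SGFD libraries, against 38.9, 39.5 and 43.3 FPKM in the CD libraries. In all 3 genes the groups did not overlap, and the log2 fold changes were 0.16, 0.20 and 0.22; Eif1a and Eif1ax are alike enough that fragments could be split between them. Eif1 did not pass after length centring (0.0656) or with equal sums (0.733). Its log2 fold change was -0.090 after quantile normalization, where Eif1ax did not pass either (0.34). Eif1a kept its call under 14 of 15 alternatives, with a highest limma adjusted p of 0.211. Eif1ad, a nuclear protein related to eIF1A, had 40.1, 40.2 and 41.5 FPKM in the SGFD libraries, against 35.5, 35.2 and 33.7 FPKM in the CD libraries. It rose by 16.6%, though not with equal sums (0.157). Eif1b, a close paralog of Eif1, had 63.2 ± 2.41 FPKM with SGFD and 62.6 ± 0.866 FPKM with CD and did not pass (limma adjusted p = 0.806); it was called higher after median-ratio scaling (log2 fold change 0.15) and lower with equal sums (log2 fold change -0.13). Eif5, which makes eIF2 hydrolyse its GTP, had 85.7 ± 7.303 FPKM with SGFD and 87.1 ± 2.98 FPKM with CD and did not pass (limma adjusted p = 0.723), being called lower with equal sums (log2 fold change -0.17) and higher after length centring (log2 fold change 0.17). Eif5b, the GTPase of subunit joining, rose by 11.7% (limma adjusted p = 0.021), a call lost without SGFD replicate 1 (0.0853), CD replicate 1 (0.0884) or CD replicate 2 (0.0636).

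For comparison, 6 of 14 genes of elongation and termination rose and 1 fell (42.9% and 7.14%), against 17.7% and 41.8% of all tested genes. The median was 0.14 on the log2 scale, against -0.13 for all tested genes. After median-ratio scaling 10 were higher and 1 lower, and with equal sums 6 and 4. Eef1g and Eef1b2, parts of the exchange factor for eEF1A, rose to 1141 ± 45.5 FPKM with SGFD, against 882 ± 13.1 FPKM with CD and to 682 ± 21.1 FPKM with SGFD, against 541 ± 9.54 FPKM with CD, and Etf1, the release factor, rose to 70.1 ± 2.54 FPKM with SGFD, against 54.4 ± 1.08 FPKM with CD. Eef2k, the kinase that inhibits elongation factor eEF2, fell to 39.1 ± 0.487 FPKM with SGFD, against 52.6 ± 1.23 FPKM with CD (limma adjusted p = 3.23e-05). Eef1g did not pass after quantile normalization (0.27), nor Eef2k after length centring (0.0873).

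Fold changes over all tested genes were lower for longer transcripts, so the members were also read against genes of like length. Their median was 0.13 in the shortest of 10 bins of transcript length (log2 scale) and -0.38 in the longest. Across the 51 tested members Spearman's rho between length and log2 fold change was -0.49, against -0.42 across the 10286 tested genes with a length; genes share libraries and are not independent replicates. Of the 51 members 46 lay above the median of their own bin, among them all 5 eIF2, all 5 eIF2B and all 14 eIF3 genes. The 5 below it included Eif2ak4, at -0.12 from its bin, and Eif4a2, at -0.60. The genes Eif4ebp3 (-0.53), Eif1b (-0.12) and Eif4enif1 (-0.003) made up the rest.

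**Figure D5:**
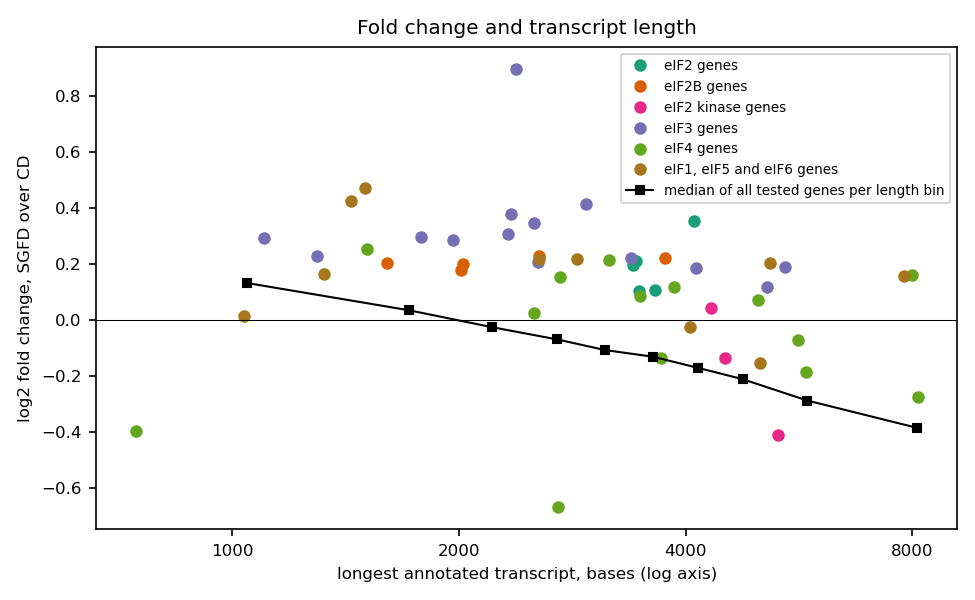
Log2 fold change of each tested member, SGFD over CD, against its longest annotated transcript in bases on a log axis, coloured by family; black squares are medians of all genes tested in 10 length bins. Of 51 members 46 lie above the median of their bin, and Eif4a2 and Eif4ebp3 lie farthest below.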

How the data were processed

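Sorted bone marrow cells of 6 samples (3 per diet) were sequenced. Library preparation was stranded and selected mRNA, per the labels' protocols. Per the submitters' processing notes the builds were GRCm38 and mm10 and the tools included StringTie, HISAT2 and fastp. The deposited values are taken as FPKM made by the authors: no source used here names the unit, which was inferred because 99.98% of genes with any value above 0 (15506 of 15509) gave whole fragment numbers, within 0.02, under 1 step for each library. Whether counting used strand is not given, and 12 members share annotated bases with another protein-coding gene, so their values are uncertain: Eif5a (Gps2), Eif1ad (Banf1), Eif5b (Rev1), Eif2a (Serp1), Eif2d (Rassf5), Eif2ak1 (Ankrd61, Aimp2), Eif3m (Ccdc73), Eif3j1 (Spg11), Eif3j2 (Gm3650), Eif4a2 (Rfc4), Eif4enif1 (Sfi1, Gm51877) and Eif4e3 (Gpr27).

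The test was limma 3.58.1 (R 4.3.3) on log2(FPKM + 1) (trend and robust moderation, two-sided, Benjamini-Hochberg over 10620 genes with at least 1 FPKM in 3 libraries); on simulated data the test was checked against known changes. Transcript length came from GENCODE for 96.9% of tested genes. The alternatives were filters of none or 5 FPKM, a pseudocount of 0.1, 4 ways of scaling, the replicate number as a block, moderation with neither trend nor robust settings, and leaving out each library. Every library value is given for the kinases, eIF2 and eIF2B subunits and, in other families, for up to 6 members of smallest p and 3 of highest level; a few further members were added after their values were seen. One gene of a marker list is not reported here. Members, lists and tests were chosen with earlier results of these data known.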

Additional observations from a re-analysis of the deposited data

How the results depend on the processing

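Scaling between libraries mattered most. Median-ratio scaling gave 3054 higher and 2844 lower tested genes, 3 lower members, 5 higher eIF2 genes, 1 higher kinase (Eif2ak1), 8 higher and 2 lower eIF4 genes, 10 higher elongation and termination genes and 3 lower regulators of eIF4F, with Ppp1cb at 0.013 on the log2 scale. Quantile normalization gave 2552 lower tested genes, 21 higher members, 5 higher eIF3 genes, 2 higher eIF4 genes, 1 higher regulator of eIF2 and 3 of eIF4F. Log2 fold changes turned negative there for Eif1 (-0.090), Eif3a (-0.028), Eif3e (-0.052), Eif3h (-0.029), Eif4a1 (-0.074), Eif4b (-0.13), Eif4g2 (-0.047), Eif4h (-0.066) and Ppp1ca (-0.031). Equal sums gave 1034 higher tested genes, 11 higher and 9 lower members, 2 higher and 2 lower genes of eIF1, eIF5 and eIF6, 1 higher eIF2, 0 eIF2B, 7 eIF3 and 1 eIF4 genes, 4 lower elongation genes, 2 higher and 10 lower regulators of eIF2 and 3 and 15 of eIF4F, with Eif3a (-0.026), Eif4b (-0.026) and Eif1b (-0.13) negative. Length centring gave 2136 lower tested genes, 2 lower members, 5 higher eIF2 genes, 1 higher and 0 lower kinases, 9 higher and 2 lower eIF4 genes, 0 lower elongation genes, and 2 and 4 lower regulators of eIF2 and of eIF4F, with Eif4g1 (0.23), Eif5 (0.17), Eif4ebp2 (0.12), Eif4g3 (0.16), Gcn1l1 (0.12) and Ppp1cb (0.18) positive on the log2 scale. The cause of these differences was not tested.

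Without a filter 3 eIF2B genes were higher, and without trend and robust moderation together 3 eIF4 genes. Deviations of same-numbered libraries correlated at -0.01, -0.23 and -0.13, and those of differently numbered ones at between -0.09 and 0.22. With 3 libraries per diet these values cannot show whether the numbers mark pairs. With the replicate block 3 eIF2B and 3 eIF4 genes were higher, with 28 higher and 5 lower members and 6 lower regulators of eIF4F. Leaving out 1 library at a time gave 26 to 32 higher and 5 to 6 lower members, 2 to 5 higher eIF2B genes, 3 to 5 higher eIF4 genes, 3 to 6 lower regulators of eIF2 and 6 to 11 of eIF4F. With 3 libraries per diet, rises as small as those of Eif3a and Eif4h sat at the limit of what was called.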
